A study of Homo sapiens with 8 samples.

Results

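The sodium pump (Na+/K+-ATPase) moves sodium out of the cell and potassium in, at the cost of ATP, and its beta subunit is needed for the pump to fold and reach the plasma membrane. FXYD proteins are small membrane proteins that bind the pump and tune it, and FXYD5 (dysadherin) is the member of that family best known from carcinomas. Aquaporins are membrane channels for water, so pump and aquaporins both take part in how a cell handles salt, water and volume. Acetalax (oxyphenisatin acetate) is a former laxative whose action on triple-negative breast cancer cells the study examined, with a view to oncosis, a form of death in which cells swell. Transcript levels are described here for 6 genes of this machinery, found by their symbols among 55679 gene identifiers: the pump subunits ATP1B1 and ATP1B3, the pump regulator FXYD5, and the aquaporins AQP1, AQP3 and AQP11. No catalytic alpha subunit and no sodium exchanger is among the 6.

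RNA-seq was performed on 2 triple-negative breast cancer cell lines, MDA-MB468 and BT549. Each line was studied as parental cells and as CE (chronic exposure) cells, which had been grown in rising Acetalax up to 40 μmol/L and then kept free of drug for 2 weeks. Parental and CE cells were each sampled untreated (control) and 6 hours after 1 μmol/L Acetalax was added, which gave 8 libraries, 1 per condition. The CE cells of a line are 1 derived population of that line, so culture history and resistance cannot be told apart. The libraries held 42261122 to 54241728 counts on genes. Levels are given as CPM (counts scaled to the library's total on genes), and levels of different genes are compared only per length, as FPKM with the length of the canonical transcript. The epithelial marker EPCAM lay between 409 and 438 CPM in the MDA-MB468 libraries and at no more than 0.189 CPM in those of BT549. The mesenchymal marker VIM lay between 1.77 and 8.94 CPM in MDA-MB468 and between 864 and 1414 CPM in BT549. Over the whole marker lists, the 5 epithelial genes summed to 5028 to 7689 CPM in MDA-MB468 and 5.75 to 87.5 CPM in BT549, and the 4 mesenchymal genes to 2.20 to 9.20 CPM and 2075 to 4478 CPM. The 6 markers of blood, endothelial and fat cells that were found summed to no more than 4.30 CPM in any library, with HBB at 0 in all of them.

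The file places ATP1B1 (ENSG00000143153) at chr1:169074935-169101960 on hg19, ATP1B3 (ENSG00000069849) at chr3:141594966-141645356, FXYD5 (ENSG00000089327) at chr19:35645633-35660786, AQP1 (ENSG00000240583) at chr7:30893010-30965131, AQP3 (ENSG00000165272) at chr9:33441152-33447609 and AQP11 (ENSG00000178301) at chr11:77300436-77321400. A read-through gene that also carries the symbol AQP1 had 0 counts in all libraries. It shares 910 of the 3261 exonic bases of AQP1, and reads in shared bases are counted for neither gene, so AQP1 is counted on its remaining exons. ATP1B1 overlaps NME7 at its end, ATP1B3 has an antisense gene and AQP11 lies within the span of CLNS1A. The strand setting of the counting was not stated, so it is not known whether reads in overlaps of genes on opposite strands were counted or left out.

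The promoters of both beta subunits and of the AQP1 and AQP3 water channels are shown because the beta subunits differed between the cell lines in opposite directions and AQP1 and AQP3 differed the most. Each sequence is the 250 bases before the RefSeq start on GRCh38.p14, read 5′ to 3′ on the strand of the gene. ATP1B1 is chr1:169106440-169106689 (+), ATP1B3 chr3:141876393-141876642 (+), AQP1 chr7:30911603-30911852 (+) and AQP3 chr9:33447594-33447843 (-). Capitals mark exact matches on either strand to the TATA box (TATAAA), the CCAAT box (CCAAT) and the GC box (GGGCGG).
ATP1B1: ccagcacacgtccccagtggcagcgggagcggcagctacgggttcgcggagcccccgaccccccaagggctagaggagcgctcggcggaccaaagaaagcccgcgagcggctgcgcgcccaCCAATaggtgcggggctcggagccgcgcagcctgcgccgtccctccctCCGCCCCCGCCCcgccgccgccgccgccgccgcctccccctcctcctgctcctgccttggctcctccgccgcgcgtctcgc
ATP1B3: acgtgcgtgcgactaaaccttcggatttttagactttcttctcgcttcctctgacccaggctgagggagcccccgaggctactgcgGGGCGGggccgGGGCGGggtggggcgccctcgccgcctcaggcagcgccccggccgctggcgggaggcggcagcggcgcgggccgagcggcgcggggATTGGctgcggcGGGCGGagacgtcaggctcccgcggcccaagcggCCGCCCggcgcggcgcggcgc
AQP1: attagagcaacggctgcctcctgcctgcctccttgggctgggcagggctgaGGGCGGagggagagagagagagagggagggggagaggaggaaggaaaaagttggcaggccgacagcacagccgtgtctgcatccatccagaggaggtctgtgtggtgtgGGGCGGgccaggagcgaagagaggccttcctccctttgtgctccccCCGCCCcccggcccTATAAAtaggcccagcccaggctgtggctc
AQP3: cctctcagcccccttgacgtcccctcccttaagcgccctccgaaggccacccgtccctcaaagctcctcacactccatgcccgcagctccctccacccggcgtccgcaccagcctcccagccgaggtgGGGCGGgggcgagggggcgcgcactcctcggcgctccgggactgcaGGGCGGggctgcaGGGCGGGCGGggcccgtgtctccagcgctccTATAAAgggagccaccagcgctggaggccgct
AQP1 and AQP3 each hold a TATA box, from 30 to 25 and from 32 to 27 bases before the start, and such a match is found in 10.7% of all 35116 RefSeq promoters of this length. ATP1B1 and ATP1B3 each hold a CCAAT box in place of it, found in 32% of promoters. GC boxes, found in 42.6% of promoters, number 2 in ATP1B1, 4 in ATP1B3, 3 in AQP1 and 4 in AQP3, where matches may overlap. FXYD5 holds 1 GC box. The AP-1 site, TGANTCA, is in 6.57% of promoters and has no match in these windows of the 5 members found in the RefSeq table. AQP11 has no entry in that table.

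Of the beta subunits, ATP1B1 was higher in MDA-MB468 and ATP1B3 was higher in BT549. ATP1B1 measured 249.6 CPM in parental control cells of MDA-MB468, 290.9 after Acetalax, 108.7 in CE control and 143.2 in CE cells after Acetalax. The same conditions of BT549 gave 49.6, 78.4, 28.1 and 47.9 CPM. All MDA-MB468 libraries thus lay above all BT549 libraries, treated cells above their controls in each background, and CE cells below parental cells at the same treatment. ATP1B3 measured 148.8, 156.2, 110.8 and 105.6 CPM in MDA-MB468 and 277.3, 313.0, 271.4 and 305.5 CPM in BT549, in the same order of conditions. Here BT549 was the higher line in every condition, and the conditions of BT549 lay close together.

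**Figure D1:**
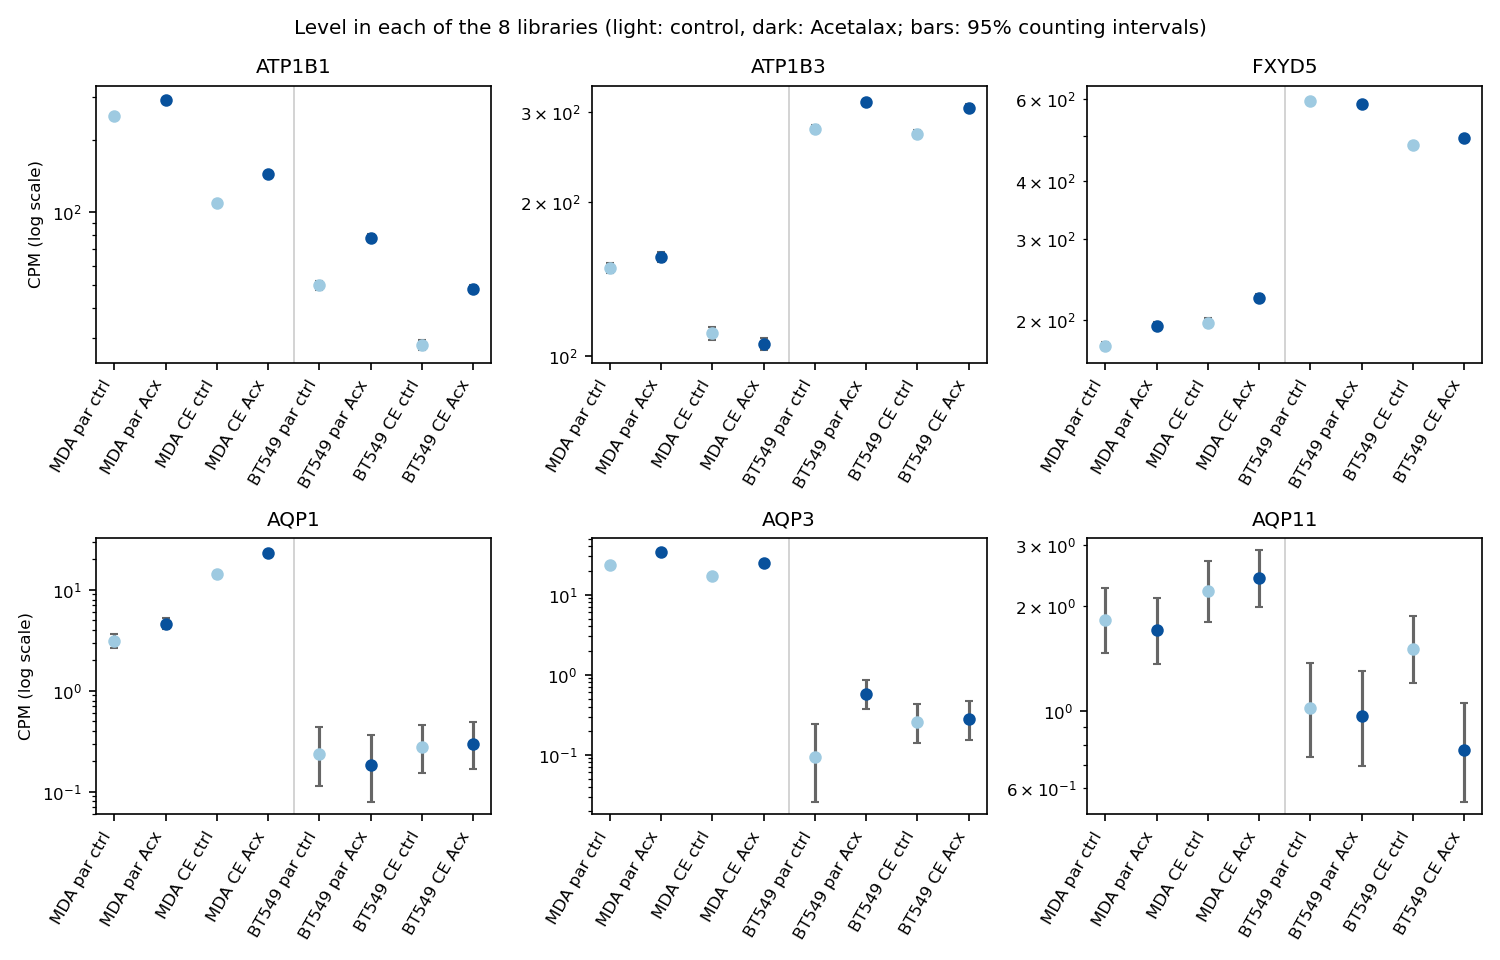
Level of each gene (CPM, log axis, each panel with its own range) in the 8 libraries. MDA is MDA-MB468, par parental, ctrl control and Acx Acetalax; light points are control and dark points treated libraries, and bars are exact 95% counting intervals. ATP1B1 and the aquaporins sit higher in MDA-MB468, ATP1B3 and FXYD5 higher in BT549.

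FXYD5 measured 175.9, 194.0, 197.6 and 223.1 CPM in MDA-MB468 (parental control, parental Acetalax, CE control, CE Acetalax). In BT549 it measured 595.1, 585.3, 478.5 and 495.5 CPM. The ranges of the lines did not overlap, and CE cells lay above parental cells in MDA-MB468 but below them in BT549. Per length, FXYD5 was the highest of the 6 genes in every library, at 200 to 254 FPKM in MDA-MB468 and 545 to 678 FPKM in BT549. With merged exons as the length, FXYD5 was still the highest, but by a narrow margin in MDA-MB468 parental control cells (58.8 FPKM, against 56.9 FPKM for ATP1B3).

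With the canonical length, the aquaporins were lower than the beta subunits in every library, and 2 of the 3 had few reads in BT549. With merged exons the distance to ATP1B1 was small in MDA-MB468 CE cells after Acetalax (11.7 FPKM for ATP1B1, 8.49 for AQP3 and 7.16 for AQP1). The merged-exon length of AQP1 includes the bases shared with the read-through gene, where its reads are not counted. Its FPKM values with that length are therefore too low. How many of these bases lie in its canonical length was not computed. The order of AQP1 beside AQP3 is not settled where they are close, as in MDA-MB468 CE cells. In MDA-MB468 parental control cells they were far apart, at 0.952 FPKM for AQP1 and 8.12 for AQP3 with merged exons. AQP1, a water channel of many epithelia and endothelia, measured 3.11, 4.63, 14.2 and 23.3 CPM in MDA-MB468 (151, 225, 629 and 1110 counts). In BT549 it had 10, 8, 15 and 15 counts, or 0.237, 0.184, 0.277 and 0.297 CPM. AQP1 rested on few reads in BT549, and within MDA-MB468 its order ran from parental control to treated CE cells without overlap of the counting intervals. AQP3, which passes glycerol as well as water, measured 23.6, 34.4, 16.9 and 24.7 CPM in MDA-MB468. In BT549 it had 4, 25, 14 and 14 counts, or 0.0946, 0.575, 0.258 and 0.277 CPM. AQP11, an unorthodox aquaporin of the endoplasmic reticulum, measured 1.83, 1.71, 2.22 and 2.42 CPM in MDA-MB468 and 1.02, 0.966, 1.51 and 0.771 CPM in BT549. It was low in both lines and the only aquaporin of the 3 whose line ranges came close.

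The first comparison asked how the lines differ, over the 4 conditions they share. It sets the libraries of 1 line against those of another, so the p-values (edgeR's quasi-likelihood test, adjusted by Benjamini-Hochberg over 19693 genes) measure the spread between these libraries and not between lines in general. ATP1B3 and FXYD5 were higher in BT549, with log2 fold changes of 1.35 (SE 0.18, adjusted p = 0.00107) and 1.61 (SE 0.14, adjusted p = 0.000200). ATP1B1 was lower in BT549 by a log2 fold change of -1.77 (SE 0.18, adjusted p = 0.000409). AQP3 and AQP1 were lower by much more, at -6.29 (SE 0.41, adjusted p = 7.30e-05) and -4.98 (SE 0.48, adjusted p = 0.000327). AQP11 was lower by -0.80 (SE 0.28, adjusted p = 0.0460), a call that was lost without any 1 of the 4 conditions (adjusted p from 0.0634 to 0.125). The calls for the members were 2 higher and 4 lower in BT549, where 27.3% of all genes tested were called higher and 29.5% lower. AQP1 and AQP3 had 25 counts or fewer in each BT549 library, so their place among the genes with enough reads rests on MDA-MB468 and their calls add nothing to that count. The ranges of the lines did not overlap for any member, and the 6 directions held when libraries were scaled by their totals alone, which moved the all-gene median from -0.02 to -0.18. Over all genes tested, 21.5% had every BT549 library above every MDA-MB468 library and 31.8% the reverse. The ranges and directions of AQP1 and AQP3, which were tested only through their reads in MDA-MB468, are not set against these shares.

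The balance of the beta subunits followed the line and then the state of the cells. Per length, ATP1B1 made up 58.3% of the summed FPKM of ATP1B1 and ATP1B3 in MDA-MB468 parental control cells, 60.8% after Acetalax, 45.0% in CE control cells and 53.1% in CE cells after Acetalax. In BT549 these shares were 13.0%, 17.3%, 7.94% and 11.6%. In both lines the share was higher after Acetalax and lower in CE cells, and with 1 library each it has no test. The choice of length moved the level of the share, not its order over the conditions: with the merged exons of each gene, which give ATP1B1 12290 bases in place of 2216, it was 26.3%, 28.4%, 17.3% and 22.4% in MDA-MB468 and 3.67%, 5.06%, 2.16% and 3.23% in BT549. Which subunit was the higher in MDA-MB468 thus depended on the length used.

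**Figure D2:**
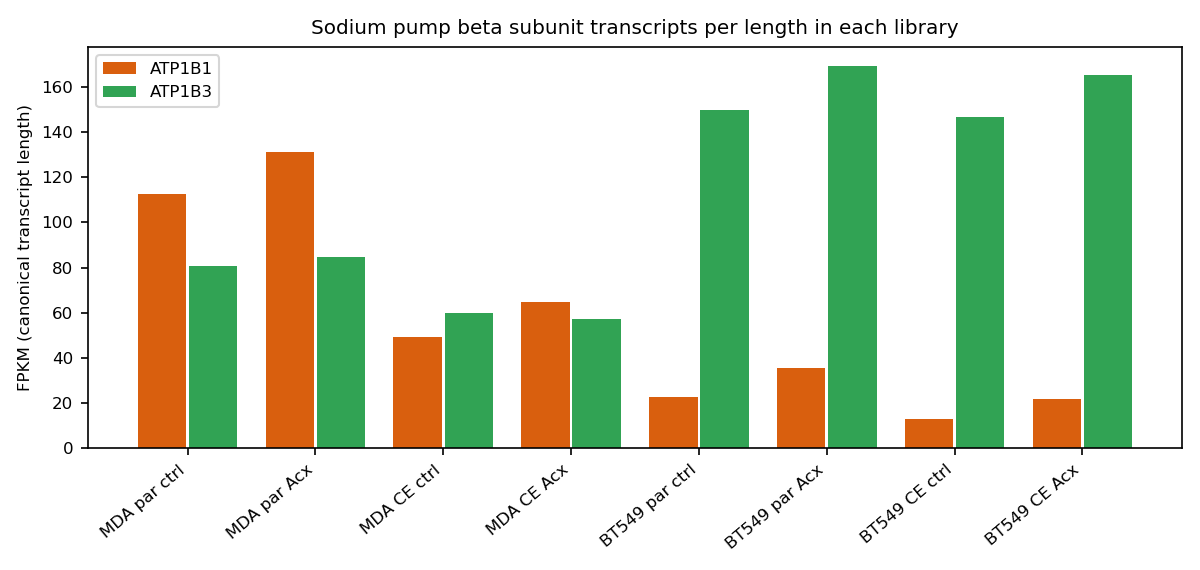
FPKM of ATP1B1 and ATP1B3 (canonical transcript length) in each library, with MDA for MDA-MB468, par for parental, ctrl for control and Acx for Acetalax. ATP1B1 falls short of ATP1B3 in all BT549 libraries and in CE control cells of MDA-MB468, and exceeds it in the other 3 libraries of MDA-MB468.

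The comparison of Acetalax with control asked which genes respond to 6 hours of drug over the 4 backgrounds (parental and CE cells of each line). ATP1B1 rose, with a log2 fold change of 0.60 (SE 0.12, adjusted p = 0.0427), and was higher in 4 of 4 backgrounds. It was the only member called, where 2.72% of all genes tested were called higher and 2.27% lower (536 and 448 genes, or 373 and 685 when libraries were scaled by their totals alone). Its log2 CPM ratio was 0.22 in MDA-MB468 parental cells (95% counting interval 0.19 to 0.26), 0.40 in MDA-MB468 CE cells (0.34 to 0.45), 0.66 in BT549 parental cells (0.58 to 0.74) and 0.77 in BT549 CE cells (0.68 to 0.86). The ratios of BT549 were above those of MDA-MB468. The difference in response between the lines was itself tested and had a log2 value of 0.46 (SE 0.16, adjusted p = 0.208), which did not pass the threshold. The call for ATP1B1 was close to the threshold: it was lost without any 1 of the 4 backgrounds (log2 fold change 0.50 to 0.72, adjusted p from 0.0626 to 0.170).

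AQP3 had a log2 fold change of 0.78 (SE 0.28, adjusted p = 0.124) and did not pass the threshold. DESeq2 gave it an adjusted p of 0.0369, and edgeR without a filter on low counts gave 0.00713. Without the BT549 parental pair its log2 fold change was 0.57. Its log2 CPM ratio was 0.54 (0.43 to 0.65) in MDA-MB468 parental cells and 0.55 (0.41 to 0.68) in MDA-MB468 CE cells, so both states of that line gave nearly the same value. In BT549 parental cells the ratio was 2.60, but between 4 and 25 counts, with an interval from 1.07 to 4.59. In BT549 CE cells both libraries had 14 counts. AQP1 had log2 CPM ratios of 0.58 (0.27 to 0.88) and 0.71 (0.57 to 0.86) in MDA-MB468 parental and CE cells. Its BT549 ratios of -0.36 (-1.91 to 1.13) and 0.10 (-1.03 to 1.24) could not be resolved at 8 to 15 counts per library. Over the 4 backgrounds AQP1 had a log2 fold change of 0.52 (SE 0.22, adjusted p = 0.172).

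The remaining members gave smaller values. ATP1B3 had a log2 fold change of 0.18 (SE 0.09, adjusted p = 0.251), with ratios of 0.18 and 0.17 in BT549 parental and CE cells and 0.07 and -0.07 in MDA-MB468. FXYD5 had 0.18 (SE 0.08, adjusted p = 0.199), with CPM ratios of 0.14 and 0.18 in MDA-MB468 parental and CE cells and -0.02 and 0.05 in BT549. The ratio of FXYD5 in BT549 parental cells changed sign with TMM scaling (0.06). AQP11 had -0.15 (SE 0.23, adjusted p = 0.714), and its log2 CPM ratio of -0.97 (-1.56 to -0.40) in BT549 CE cells, from 82 to 39 counts, stood apart from values between -0.10 and 0.12 in the other 3 backgrounds. Without the BT549 CE pair the log2 fold change of AQP11 was 0.06. By CPM, ATP1B1 was higher in 4 of 4 backgrounds and no member was lower in all, where 10.5% of all genes were higher and 25% lower in all 4. AQP3 is not counted here, since its sign in BT549 CE cells comes from the library totals alone. With TMM scaling FXYD5 was also higher in all 4 backgrounds, while the shares of all genes were taken by CPM only. The CPM ratio of the median gene was -0.11 in parental cells of either line, and in CE cells it was -0.06 for MDA-MB468 and -0.22 for BT549, so CPM ratios near 0 are above the median gene.

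**Figure D3:**
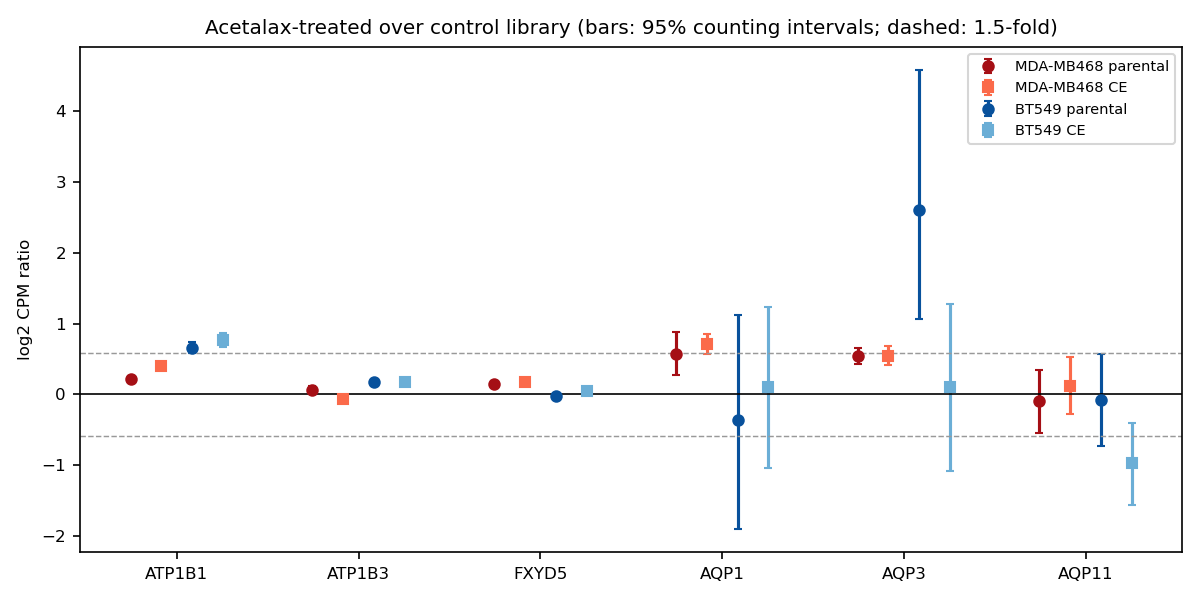
Log2 CPM ratio of the Acetalax-treated over the control library for each gene in the 4 backgrounds, with exact 95% counting intervals and dashed lines at 1.5-fold. ATP1B1 lies above 0 in all 4 backgrounds, and AQP1 and AQP3 lie above 0 in both MDA-MB468 backgrounds. The widest intervals belong to AQP1 and AQP3 in BT549, at 4 to 25 counts, followed by those of AQP11.

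A ratio of at least 1.5-fold in a single pair was set against the share of all genes averaging 1 CPM or more that reached it. In MDA-MB468 parental cells no member reached it by CPM, against 11.4% of genes higher and 15% lower. With TMM scaling AQP1 and AQP3 passed it there (log2 ratios 0.63 and 0.60). In MDA-MB468 CE cells AQP1 was the only member to reach it by CPM, at 1.64-fold higher, against 7.38% higher and 9.54% lower. AQP3 passed it in these CE cells with TMM scaling (0.62). The shares of all genes were taken by CPM only. In BT549 parental cells ATP1B1 reached it (1.58-fold higher), against 6.88% higher and 14% lower. AQP3 also did so, but it averaged over 1 CPM only through MDA-MB468 and had 4 and 25 counts here, so it is not set against these shares. In BT549 CE cells ATP1B1 reached it (1.70-fold higher) and AQP11 in the lower direction (0.510-fold), against 10.3% higher and 28.8% lower. These pairs have 1 library on each side and no test.

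The difference in response to Acetalax between CE and parental cells was tested directly. No member was called (adjusted p = 1 for all 6), and 0% of all genes tested were called: edgeR called 0 genes with 91 at an unadjusted p under 0.05, and DESeq2 also called 0. The estimates for the members were 0.19 (SE 0.27) for ATP1B1, -0.03 (SE 0.22) for ATP1B3, 0.10 (SE 0.19) for FXYD5, 0.24 (SE 0.52) for AQP1, -0.62 (SE 0.62) for AQP3 and -0.27 (SE 0.56) for AQP11. In the matching test between the lines, no member was called either, where 1.78% of all genes were.

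CE cells were compared with parental cells to ask what differs after long exposure. Fitted over 4 pairs of libraries, which come from the same 2 pairs of cultures, no member was called, where 0.0609% of all genes were called higher and 0.0559% lower. ATP1B1 was lower in 4 of 4 pairs, with a log2 fold change of -0.91 (SE 0.14, adjusted p = 0.100). AQP1 had a log2 fold change of 1.63 (SE 0.40, adjusted p = 0.188). In BT549 the epithelial markers summed to 8.99 and 5.75 CPM in parental control and treated cells and to 87.5 and 51.6 CPM in CE cells, and the mesenchymal markers to 2075 and 2117 CPM and to 4478 and 4260 CPM. In MDA-MB468 the epithelial markers summed to 5756 and 5028 CPM in parental and to 7332 and 7689 CPM in CE cells, and the mesenchymal markers to 5.84 and 9.20 CPM and to 2.20 and 2.82 CPM. Their part in the CE values of the members was not tested. DESeq2 called both ATP1B1 and AQP1 (adjusted p = 7.28e-05 and 0.00801), as did edgeR without a filter on low counts (adjusted p = 0.0180 and 0.0393).

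In the control libraries, ATP1B1 had a log2 CPM ratio of CE over parental cells of -1.20 (-1.25 to -1.15) in MDA-MB468 and -0.82 (-0.92 to -0.72) in BT549, which are 2.30-fold and 1.77-fold lower levels. In the treated libraries it had -1.02 (-1.06 to -0.98) and -0.71 (-0.79 to -0.64). Treated CE cells of BT549, at 47.9 CPM, were thus near the level of untreated parental cells, at 49.6 CPM. With TMM scaling they were above it, at 55.3 against 49.5 CPM. Treated CE cells of MDA-MB468 stayed below untreated parental cells with either scaling. AQP1 had ratios of 2.20 (1.94 to 2.46) and 2.33 (2.12 to 2.55) in the control and treated libraries of MDA-MB468, or 4.59-fold and 5.04-fold higher in CE cells. In BT549, at 8 to 15 counts per library, its ratios were 0.22 (-1.03 to 1.54) and 0.69 (-0.64 to 2.13). The value of AQP1 therefore rests on MDA-MB468.

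ATP1B3 had ratios of -0.43 and -0.57 in the control and treated libraries of MDA-MB468 and of -0.03 and -0.04 in BT549, where both changed sign with TMM scaling (0.02 and 0.10). AQP3 had -0.48 in both treatments of MDA-MB468, while in BT549 its ratios of 1.45 (-0.22 to 3.51) and -1.05 (-2.11 to -0.05) went opposite ways at 4 to 25 counts. AQP11 had ratios of 0.28, 0.50, 0.57 and -0.32, in MDA-MB468 control and treated and BT549 control and treated libraries. FXYD5 had 0.17 and 0.20 in MDA-MB468 but -0.31 and -0.24 in BT549, so its fit over both lines was near 0 (-0.02, SE 0.12, adjusted p = 0.954). In the control pair of MDA-MB468, AQP1 was 1.5-fold or more higher and ATP1B1 lower, against 7.73% and 5.55% of genes. In that of BT549, ATP1B1 was 1.5-fold or more lower by CPM, where 16.9% of genes were higher and 15.8% lower. AQP3, at 4 and 14 counts, is not set against these shares, and AQP11 reached 1.5-fold only with TMM scaling (log2 ratio 0.63). Over 4 pairs, ATP1B1 was lower in all of them, where 12.2% of genes were higher and 11.1% lower in all 4. ATP1B3 was lower in all by CPM but not with TMM scaling, and the signs of AQP1 in BT549 are not counted at 8 to 15 counts.

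**Figure D4:**
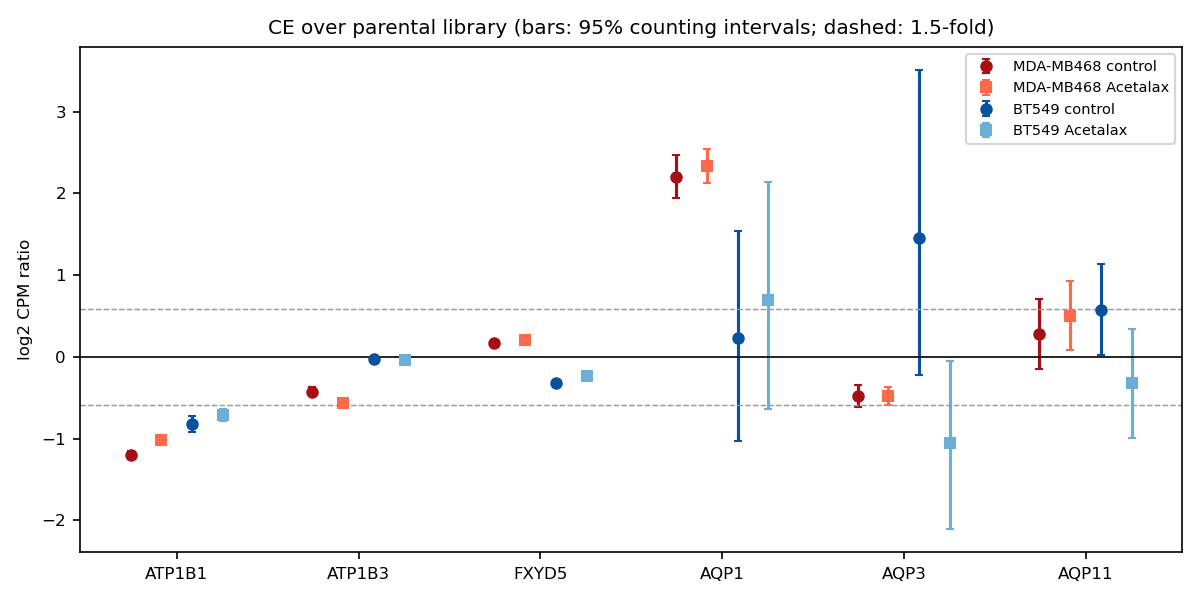
Log2 CPM ratio of the CE over the parental library for each gene, in control and Acetalax-treated cells of each line, with exact 95% counting intervals and dashed lines at 1.5-fold. ATP1B1 lies below 0 in all 4 pairs, AQP1 lies above 2 in both MDA-MB468 pairs, and FXYD5 lies above 0 in MDA-MB468 and below 0 in BT549.

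Other members of the same families were mostly low. Of 8 pump subunit genes listed, 3 reached 1 CPM in a library, as did 4 of 7 FXYD genes and 5 of 14 aquaporins. For Acetalax, the pump list had 1 call among 5 genes tested, which was ATP1B1. The FXYD list had 0 of 5 and the aquaporins 0 of 6. Median log2 fold changes were 0.18 for the pump subunits, -0.24 for the FXYD genes and -0.42 for the aquaporins, beside -0.04 for all genes tested. AQP1 and AQP3 lay above this aquaporin median, and AQP2, AQP4 and AQP5, none of them above 1.54 CPM in any library, had log2 fold changes of -1.64, -0.68 and -0.90 (adjusted p = 0.150, 0.394 and 0.469). Between lines, 6 of 6 aquaporins tested were lower in BT549, the FXYD genes gave 2 calls in each direction and the pump list gave 1 higher and 2 lower, beside 27.3% of all genes higher and 29.5% lower. Of these aquaporins, 5 had few or no reads in BT549 (AQP11 is the exception), so their number is a description. FXYD3 and FXYD6 also had few or no reads in BT549, and FXYD7 had few in MDA-MB468. Their calls follow from reads in the other line, so the aquaporin and FXYD counts are not read against these shares. FXYD3, an epithelial FXYD protein, measured 4.63 to 11.6 CPM in MDA-MB468 and at most 0.0230 CPM in BT549. FXYD6 measured 1.28 to 1.77 CPM in MDA-MB468 and had 0 counts in BT549, while FXYD7 measured 0.0617 to 0.189 CPM in MDA-MB468 and 2.49 to 10.1 CPM in BT549.

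Among genes known to set the amount of pumps and channels at the membrane, SGK1 and NEDD4L rose with Acetalax, 2 calls among 6 genes tested, where 2.72% of all genes were called higher and 2.27% lower, and the list median was 0.47 beside -0.04 for all genes. The gene lists were chosen with earlier results of these data known, so their counts of calls are descriptions. SGK1 encodes a kinase that favours sodium transport and NEDD4L a ubiquitin ligase that removes sodium channels from the membrane. SGK1 went from 10.2 to 31.4 CPM in MDA-MB468 parental cells, from 4.62 to 10.1 in MDA-MB468 CE cells, from 131 to 347 in BT549 parental cells and from 143 to 807 in BT549 CE cells (log2 fold change 1.77, SE 0.22, adjusted p = 0.0286). NEDD4L went from 33.7 to 106.9, from 38.3 to 50.1, from 20.8 to 34.8 and from 9.51 to 25.1 CPM in the same order (log2 fold change 1.14, SE 0.22, adjusted p = 0.0398). Both were higher in all 4 backgrounds.

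Of 20 sodium entry and exchange genes tested, 1 rose and 2 fell, beside 2.72% and 2.27% of all genes, and the list median was -0.21 beside -0.04 for all genes. SLC4A7, a sodium bicarbonate cotransporter, rose (log2 fold change 0.90, SE 0.19, adjusted p = 0.0431). SCNN1A, the alpha subunit of the epithelial sodium channel, fell (-0.62, SE 0.13, adjusted p = 0.0439), and so did SLC9A8, an exchanger of the Golgi apparatus (-0.59, SE 0.12, adjusted p = 0.0424). SCNN1A went from 149.8 to 98.6 CPM in MDA-MB468 parental cells and from 143.2 to 93.5 CPM in CE cells, and had 5 to 22 counts per library in BT549 (at most 0.406 CPM), so its decrease rests on MDA-MB468. The most abundant gene of this list, SLC9A3R1, a scaffold protein of exchangers, averaged 178 CPM. Of 10 genes of chloride-coupled potassium export and its kinases, 1 rose, SLC12A4, a potassium chloride cotransporter of volume regulation (0.61, SE 0.11, adjusted p = 0.0377), beside 2.72% of all genes called higher, and the list median was -0.03. The most abundant gene of that list, the kinase WNK1, averaged 212 CPM.

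Without MDA-MB468 parental cells the adjusted p of these 6 genes was 0.170 to 0.191. SGK1 stayed called without each of the other 3 backgrounds. NEDD4L and SLC4A7 kept their calls only without MDA-MB468 CE cells (adjusted p = 0.0446 and 0.0471), and SLC12A4, SCNN1A and SLC9A8 lost theirs without any 1 background. In the test of the difference between lines, STK39, a kinase that acts on chloride cotransporters, was the only gene called in these lists (log2 value -1.14, SE 0.20, adjusted p = 0.0421). It went from 22.4 to 38.2 CPM and from 48.5 to 73.9 CPM in MDA-MB468 parental and CE cells, and from 16.6 to 12.6 and from 18.8 to 12.2 CPM in BT549. No list gene was called between CE and parental cells. Between lines the sodium entry list gave 5 genes of 20 higher and 12 lower in BT549, the potassium export list 5 and 2 of 10, and the kinase and ligase list 3 and 2 of 6, beside 27.3% and 29.5% of all genes. Within the sodium entry list, the largest line differences were those of SLC8A1, a sodium calcium exchanger at no more than 0.0631 CPM in MDA-MB468 and 20.3 to 35.8 CPM in BT549, and of SCNN1A. WNK2 measured 74.3 to 94.4 CPM in MDA-MB468 and at most 0.664 CPM in BT549. SLC8A1, SCNN1A and WNK2 each had few or no reads in 1 of the lines, so they add nothing to these list counts.

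**Figure D5:**
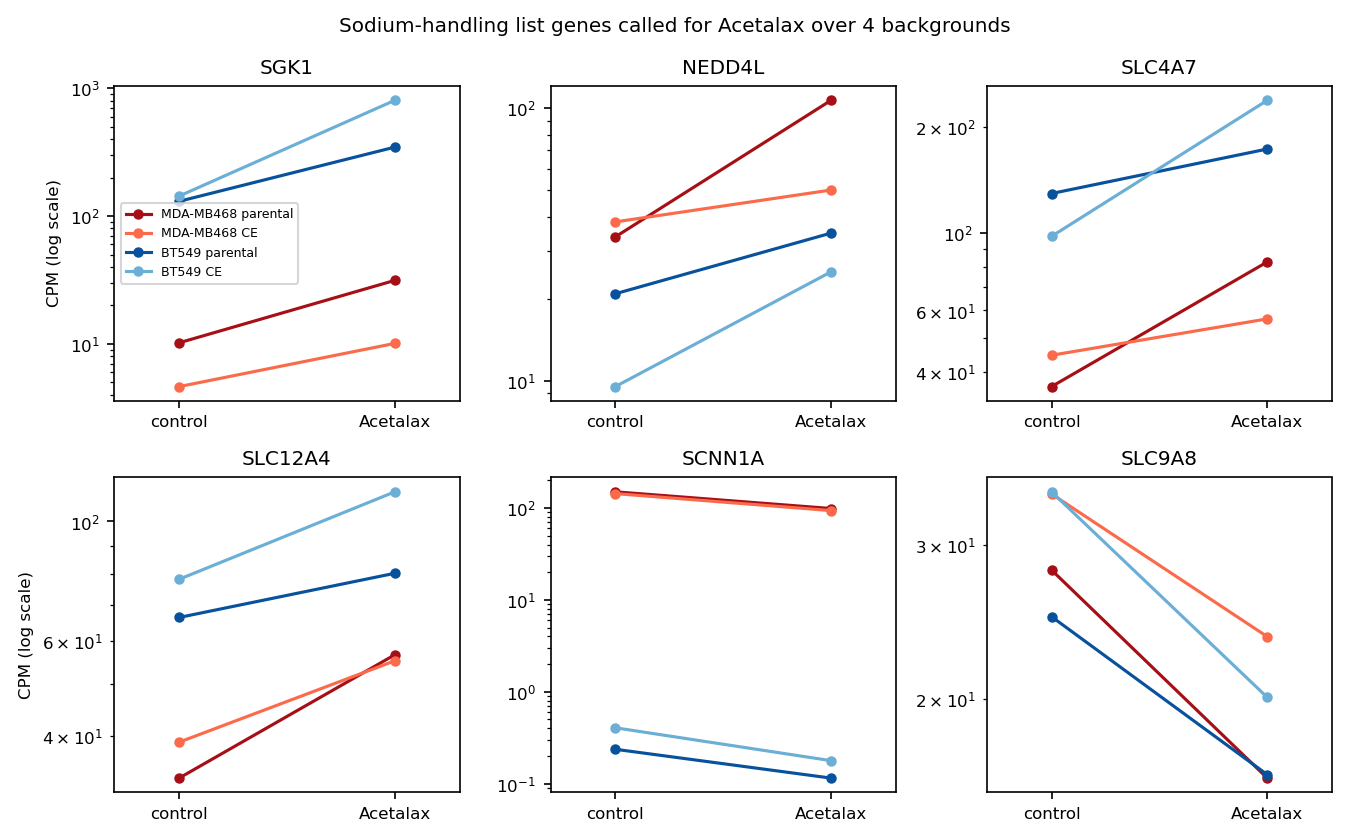
CPM (log axis, each panel with its own range) of the 6 genes of the lists, other than the members, called for Acetalax, with a line from the control to the treated library of each background. SGK1, NEDD4L, SLC4A7 and SLC12A4 go up and SLC9A8 goes down in all 4 backgrounds; SCNN1A goes down in both MDA-MB468 backgrounds and rests on 5 to 22 counts per library in BT549.

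The genes most like each member were sought over the 8 libraries by Pearson's r of log2(CPM + 1) centred within each line, among genes averaging 5 CPM or more. For ATP1B1 they were MRPL14 (r = 0.973) and NTN1 (0.969), and for ATP1B3 EDIL3 (0.989) and ADAMTS1 (0.988). For FXYD5 they were THSD4 (0.993) and KRT81 (0.983), and for AQP1 KLK6 (0.997) and EML1 (0.992). For AQP3 they were TBC1D10B (0.954) and CCDC130 (0.950), and for AQP11 SPPL2B (0.989) and ZNF587B (0.973). Such values are the highest of 11134 or 11135 genes at 8 libraries of 2 lines and have no p. Those of AQP1 rest mostly on MDA-MB468, since AQP1 varied little on this scale in BT549, at 8 to 15 counts. Those of AQP3 include BT549 libraries of 4 to 25 counts. Among the 15 pairs of members, r ran from -0.909 (ATP1B3 and AQP1) to 0.840 (ATP1B1 and ATP1B3) over the same libraries.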

How the data were processed

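RNA from MDA-MB468 and BT549 cells was sequenced after poly(A) selection with a directional kit as paired reads. Alignment was to hg19 with STAR (version 2.7.11b in the submitters' processing notes), and the authors deposited its GeneCounts output as raw counts, whole numbers that were not normalized. Annotation and strand column are not given in the sources used here. Labels gave the groups; doses and times came from labels and methods.

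The deposited table had 58154 rows for 55679 gene identifiers, and repeats of an identifier were kept 1 time. CPM used the total count on genes. The intervals of CPM values and ratios are exact (Clopper-Pearson, 95%) and cover counting error only. At 42261122 to 54241728 counts per library, chi-square per degree of freedom between libraries was at least 39.5, so none repeated another. FPKM used exon lengths of GENCODE for hg19; the canonical transcript was chosen as the length after the data were seen, with merged exons as the alternative. Tests were quasi-likelihood tests of edgeR (version 4.0.16 in R 4.3.3; TMM scaling; filterByExpr, which kept 19693 genes; Benjamini-Hochberg; threshold 0.05), fitted on all 8 libraries, with 4 intercepts and 1 term for Acetalax, CE or line (3 residual degrees of freedom) or with a further interaction term (2). The pairs act as replicates; the 4 Acetalax pairs come from 2 lines, and p-values measure only the spread between these libraries. Each SE was derived from the edgeR test, as the size of the log2 fold change divided by the square root of its F statistic. Alternatives were DESeq2 (1.42.0), its size factors, total counts, no filter on low counts, subsets of the libraries and, for ratios, TMM scaling and a pseudocount of 1. In simulated data with 200 changed genes, edgeR recovered 98.5% for Acetalax, 98% for CE, 98.5% for line, and 50% and 57% for the interactions with CE and line. The planted log2 changes were 1 or 2 in size, in genes averaging over 5 CPM, with equal effects in every pair. All genes and comparisons had 1 dispersion, and CE or line effects that differ between pairs were not simulated. The shares for CE, line and the interactions therefore do not show how often changes in these data are missed. The log2 fold changes of the members with Acetalax were all smaller than those planted, so the share for Acetalax does not show how often such changes are missed.

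The members and the 6 gene lists were chosen with earlier results of these data known. Genes named are the members, the 2 genes most like each, and from each list the most abundant other gene and up to 3 called genes per test. A gene under this rule is not reported here.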

Additional observations from a re-analysis of the deposited data

Results flagged for a closer look

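FXYD5 differed between CE and parental cells in opposite directions in the cell lines: its log2 CPM ratio was 0.17 and 0.20 in the control and treated pairs of MDA-MB468 and -0.31 and -0.24 in those of BT549. Each line's pairs agree in sign, but whether the effects of the lines differ was not tested.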

How the results depend on the processing

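For Acetalax, 984 genes were called, 3585 without a filter on low counts, 2930 by DESeq2, 0 to 554 without 1 background (0 without MDA-MB468 parental cells), and 0 in parental cells alone, in CE cells alone or without the pairing of treated and control libraries (no replicate block). ATP1B1 kept its call with DESeq2 (adjusted p = 0.00231), with either other scaling (0.0411 and 0.0488) and without the filter, and lost it in every subset (0.561 in parental and 0.341 in CE cells alone) and without the block (0.137). For CE, 23 genes were called, 446 without the filter, 1010 by DESeq2, 0 to 10 without 1 pair, 0 with the control pairs alone and 76 without the replicate block. For lines, 11188 genes were called, 9096 to 9913 without 1 condition and 6731 in the control libraries. The CE interaction called 0 genes and 3 without the filter; the line interaction called 351, 1632 without the filter and 941 by DESeq2. Of 228 alternative values of the members in these fits, 202 kept direction and side of the threshold, 13 lost a call, 6 gained one and 7 changed sign. The sign changed for AQP11 with Acetalax (-0.27 to 0.060 without 1 background, above 0 without BT549 CE), for FXYD5 with CE (-0.066 to 0.070 without 1 pair, above 0 without either BT549 pair), for AQP3 with CE (0.13 in control pairs) and for ATP1B3 in the CE interaction (0.0066, 0.028 and 0.0069 with DESeq2 size factors, no filter and DESeq2). Of 36 ratios of members in single pairs, 9 reached 1.5-fold, 13 with TMM scaling, 6 with log2(CPM + 1) and 4 with log2(FPKM + 1), where low values shrink by construction. The cause of the other changes was not tested. Depth limits AQP1 and AQP3 in BT549, at 4 to 25 counts.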
